A study of Homo sapiens with 4 samples.

Results

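The peaks described here are the PML ChIP-seq peaks whose nearest annotated gene was a microRNA gene and whose centre lay within 10000 bp of the start that the deposited annotation gave for that gene. They were chosen by gene name (MIR followed by a digit, or MIRLET) and distance, with host genes ending in HG left out, and no peak value entered the choice. There were 1288 such peaks of 68937 in the whole list, and they named 614 genes. The group with the antibody was PML ChIP, with 2 libraries from MDA-MB-231 cells, and its reference was input, with 2 libraries from the same cells. MDA-MB-231, an established line of human triple-negative breast cancer cells, was grown with no treatment named in the labels, and PML was pulled down from cross-linked chromatin with an antibody against it (Bethyl Laboratories, A301-167A). The duplicates were merged by the authors before deposit, so no peak has a replicate error and no test across samples could be made. Every percentage below carries an exact Clopper-Pearson 95% interval where one is given, which covers counting error only.

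MicroRNAs are short RNAs that guide Argonaute proteins to messenger RNAs, mostly through pairing of the seed, bases 2 to 8 of the mature strand. Their genes are usually transcribed by RNA polymerase II into long primary transcripts, from which the Drosha and DGCR8 complex cuts a hairpin and Dicer then cuts the mature duplex. Many hairpins lie in introns of other genes and share the promoter of that host gene. PML is the scaffold protein of PML nuclear bodies, and its binding to DNA in ChIP is usually read as contact through chromatin partners.

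The label was checked against the RefSeq annotation of GRCh38.p14. Of 614 gene names, 613 were microRNA genes in RefSeq by gene ID, and the other was MIR1-1HG-AS1, an antisense transcript that the name pattern also caught. For 1035 of the 1049 peaks whose gene had a RefSeq hairpin sequence, the deposited distance was within 2 bp of the distance to the 5′ end of the hairpin. The start used for these genes was therefore the hairpin itself and not the start of the primary transcript. Another 39 peaks of 19 genes (3.03% of the 1288), among them MIR4454, MIR1268A and MIR4477B, lay over 10200 bp from every RefSeq placement of the named gene or on another chromosome. Their highest score was 126. They include the 2 peaks of MIR1-1HG-AS1, which has no hairpin. For the others the deposited annotation and RefSeq placed the gene differently.

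The mature sequences of 14 microRNAs with a peak within 10000 bp are shown first because they carry the 2 features described below, shared seeds and base composition. Sequences are those of RefSeq (GRCh38.p14), written 5′ to 3′ with the seed in capitals. Of the genes with a peak, 554 had a mature sequence there.
hsa-let-7a-5p: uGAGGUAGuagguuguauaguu
hsa-let-7b-5p: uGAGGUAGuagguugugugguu
hsa-miR-92a-3p: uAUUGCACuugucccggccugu
hsa-miR-92b-3p: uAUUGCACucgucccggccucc
hsa-miR-130b-3p: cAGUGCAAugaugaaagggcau
hsa-miR-301b-3p: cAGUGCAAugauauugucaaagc
hsa-miR-9-5p: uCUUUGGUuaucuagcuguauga
hsa-miR-212-3p: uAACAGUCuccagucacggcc
hsa-miR-1229-3p: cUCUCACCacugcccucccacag
hsa-miR-1915-3p: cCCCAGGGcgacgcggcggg
hsa-miR-6764-5p: uCCCAGGGucuggucagaguug
hsa-miR-4674: cUGGGCUCgggacgcgcggcu
hsa-miR-3621: cGCGGGUCggggucugcagg
hsa-miR-4521: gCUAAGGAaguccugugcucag

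The 823 mature sequences of these genes held 742 distinct seeds, and 67 seeds were shared by 2 or more of the genes. All 2545 mature sequences of the table held 1915 distinct seeds, and such counts depend on the size of the set. The let-7 seed GAGGUAG was that of MIRLET7A1, MIRLET7A3, MIRLET7B and MIR4458, 4 of the 14 RefSeq genes with this seed. The seed AUUGCAC was that of MIR92A1, MIR92B and MIR32, 3 of 7, and CUUUGGU that of all 3 miR-9 genes. The seed AGUGCAA of MIR130B and MIR301B, neighbours on chromosome 22, was held by 2 of 6. MIR1915 and MIR6764 shared CCCAGGG although their hairpins lie on chromosomes 10 and 14.

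PML peaks near microRNA genes were spread broadly around the hairpin, unlike the other peaks near gene starts. Of the 1288 peaks, 263 (20.4%, interval 18.2 to 22.7%) were centred within 1000 bp of the assigned start, mostly the hairpin's 5′ end. Among the 27627 other peaks within 10000 bp of a start, the share was 48.9% (48.3 to 49.5%). A further 570 of the microRNA peaks (44.3%) lay at over 1000 and up to 5000 bp, against 27.5%, and 455 (35.3%) farther out, against 23.6%. The 1000 bp before the assigned start and the 1000 bp after it held 10.2% each of the microRNA peaks. For the other peaks it was 15.2% and 33.7%. The median distance was 3590 bp, against 1100 bp. No test of this difference was made, since peaks of 1 merged list are not replicates.

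**Figure D1:**
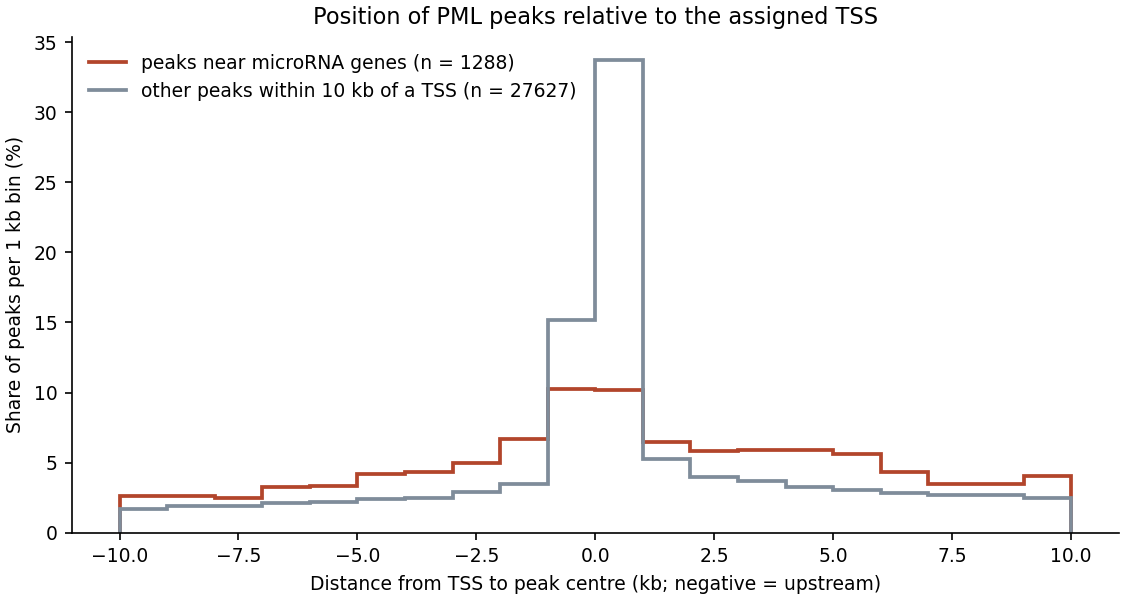
Share of peaks in bins of 1 kb of distance from the assigned start to the peak centre, for the 1288 peaks near microRNA genes and the 27627 other peaks within 10 kb of a start. The microRNA peaks reach 10.2% in each of the bins next to the assigned start, and the other peaks reach 33.7% in the first bin after it.

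The authors gave each peak a whole-number score whose scale their table leaves unstated, and it serves here only to rank peaks within the list. Its median was 32 near microRNA genes (quartiles 26 and 48) and 42 among the other peaks within 10000 bp (27 and 68). The difference lay in the peaks close to the start. Within 1000 bp the medians were 36 and 59, while from there to 5000 bp they were 31 and 32, and from 5000 to 10000 bp both were 31. Width followed the same pattern, with medians of 547 bp and 743 bp within 1000 bp, 448 bp and 439 bp in the middle class, and 429 bp and 421 bp beyond. Scores of 100 or more were held by 59 microRNA peaks (4.58%), against 13.7% of the other peaks. The limit of 10000 bp cut through a continuous range: MIR6888 (score 36) and MIR133A2 (52) had peaks just inside it, at 9987 and 9978 bp, and MIR12113 (31) and MIR4491 (17) just outside, at 10007 and 10024 bp.

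**Figure D2:**
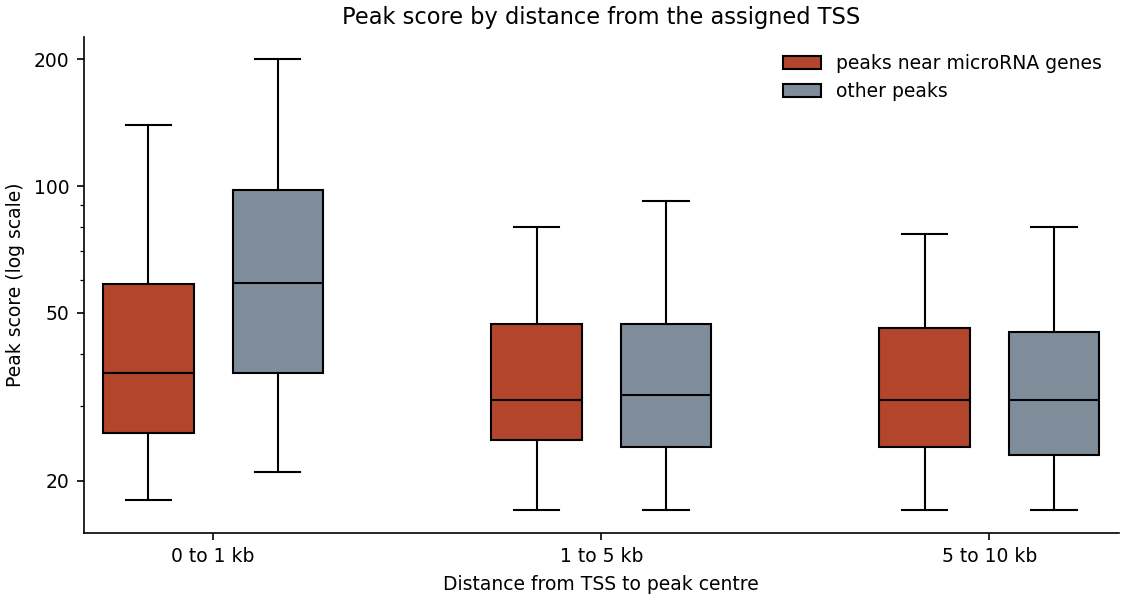
Peak score on a log axis by distance class, with peaks near microRNA genes left of the other peaks; boxes span the quartiles, the line is the median and whiskers reach the 5th and 95th percentile. Within 1 kb the medians are 36 and 59, and in both outer classes they differ by at most 1.

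Most of the hairpins lay inside other genes. By RefSeq gene bounds, 901 of the 1288 peaks (70%) belonged to 418 hairpins inside a protein-coding gene, 125 to hairpins inside a lncRNA gene only, and 241 to hairpins in neither, while 21 had no RefSeq hairpin on their chromosome. The median scores of the first 3 classes were 31, 36 and 36. All 1913 RefSeq microRNA genes were divided the same way: a peak of this set was present for 34.8% of those inside a protein-coding gene (interval 32.1 to 37.6%), 24.7% of those inside a lncRNA gene only (19.8 to 30.2%) and 29.1% of those in neither (24.8 to 33.7%). Counted over any peak centred within 10000 bp, whatever gene it was assigned to, the shares were 53%, 53% and 51.2%. In the deposited annotation, introns held 534 of the peaks (41.5%, against 33.8% of the other peaks), intergenic DNA 265 (20.6%, against 15.2%) and the promoter class 161 (12.5%, against 27.6%). Of those 161, 138 were promoter peaks of the hairpin's own accession, as were 100 of the 155 peaks in the transcription end class. CpG islands were named for 60 (4.66%, against 10.9%) and repeats for 158 (12.3%, against 9.68%), of which 46 were LTR, 44 SINE and 40 LINE elements.

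The highest-scoring peaks were wide and often covered the hairpin. Of the 20 highest, with scores of 168 to 494, 12 overlapped the hairpin, 11 were 2000 bp or wider, and 11 belonged to hairpins inside a protein-coding gene. The highest peak, with a score of 494 and rank 45 of the whole list, was 5970 bp wide and lay at chr5:179795006-179800975 over MIR1229, in MGAT4B, which encodes an N-glycan branching enzyme. MIR1915, inside its host gene MIR1915HG on chromosome 10, had a peak with a score of 336 at chr10:21495373-21497443. MIR92B on chromosome 1, a relative of MIR92A1, had 198 at chr1:155193563-155195567. Not over their hairpins were the peaks of MIR4648 in LFNG (237), MIR8089 in BTNL9 (211, a CpG island), MIR4257 in ADAMTSL4 (187) and MIR4489 in SIPA1 (175), between 2282 and 9887 bp away. MIR4521 had 174 at chr17:8185945-8187873, over a hairpin in neither kind of gene. MIR3960 had 171 at chr9:127784733-127786966, and this peak covered the start of CDK9, which encodes the kinase of the elongation factor P-TEFb. MIR6732 had 168 in ZC3H12A, an mRNA endonuclease gene.

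Chromosome 8 held 5 of these 20, within a stretch at its long-arm end. They were MIR6847 in EXOSC4 (score 371), MIR6850 in RPL8 (298), MIR4664 in FAM83H (213), MIR6846 in OPLAH (195) and MIR10400 in ZFTRAF1 (186). All 5 overlapped their hairpins. Of the 59 peaks with a score of 100 or more, 13 lay on chromosome 8. For comparison, that chromosome held 6.44% of the microRNA peaks of any score and 4.5% of the other peaks within 10000 bp of a start. Its share of the other peaks with a score of 100 or more was not counted. Whether the high scores there are particular to microRNA genes was therefore not tested.

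Some of the high-scoring peaks lay in repeated DNA. MIR3648-1 on chromosome 21 had a score of 230 inside RNA45SN2, a copy of the multicopy ribosomal RNA gene, and MIR10396A on the same chromosome had 460 at chr21:8987947-8988322, where the deposited annotation named the same hairpin accession as at MIR3648-1. MIR4477A had peaks with scores of 280, 129 and 117 on chromosome 9, the first over a simple repeat of TG, the second over an Alu element and the last over a simple repeat of CA. The MIR4477A peak with 117 was among those over 10200 bp from every RefSeq placement of the gene. MIR4477B had 171, also on chromosome 9, and no repeat was named for that peak or for the one of MIR10396A. Reads of multicopy DNA cannot be placed uniquely, and their part in these scores was not tested.

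Hairpins under a PML peak were rich in G and C. Over all 1913 RefSeq microRNA genes, whatever gene the peak was assigned to, 216 (11.3%) had a peak over the hairpin, and for 142 of these the peak over it was assigned to that same gene. Counting the peaks of the set over a neighbouring hairpin too, 156 hairpins lay under one. Of the 1560 genes with a RefSeq hairpin sequence, the 176 with a peak over the hairpin had a median G+C content of 67% (quartiles 60.2 and 74%). The median was 57.1% for the 137 with a peak centred within 1000 bp but not over the hairpin, 53.2% for the 532 with one centred farther away within 10000 bp, and 46.6% for the 715 with none within 10000 bp. Of hairpins with 70% G+C or more, 77 of 135 (57%, interval 48.2 to 65.5%) had a peak over them, against 56 of 274 (20.4%) at 60 to 70%, 35 of 459 (7.63%) at 50 to 60%, 8 of 427 (1.87%) at 40 to 50% and 0 of 265 below 40% (upper bound 1.38%). These bins were chosen after the data were seen.

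Examples of both ends of this range, chosen after their values were seen, are shown from RefSeq (GRCh38.p14) with annotated mature strands in capitals. A peak lay over the first 4, and the peaks of the last 2 lay elsewhere.
MIR3960: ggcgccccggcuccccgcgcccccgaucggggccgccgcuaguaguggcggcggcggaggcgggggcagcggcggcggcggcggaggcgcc
MIR1915: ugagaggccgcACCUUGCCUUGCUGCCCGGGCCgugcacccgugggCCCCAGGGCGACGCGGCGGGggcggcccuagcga
MIR92B: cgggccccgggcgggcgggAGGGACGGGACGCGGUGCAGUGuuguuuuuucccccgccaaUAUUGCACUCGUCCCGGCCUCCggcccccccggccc
MIR4521: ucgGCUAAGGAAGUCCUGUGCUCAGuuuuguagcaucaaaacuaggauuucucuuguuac
MIRLET7A1: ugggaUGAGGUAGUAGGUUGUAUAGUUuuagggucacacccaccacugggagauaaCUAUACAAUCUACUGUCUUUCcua
MIR29A: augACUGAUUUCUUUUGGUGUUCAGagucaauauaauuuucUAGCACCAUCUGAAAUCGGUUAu
The hairpins of MIR3960, MIR1915 and MIR92B had 87.9%, 78.8% and 75% G+C, and those of MIRLET7A1 and MIR29A 42.5% and 32.8%. The peaks over MIR3960, MIR1915 and MIR92B were also centred within 1000 bp of another gene's RefSeq start (CDK9, MIR1915HG and THBS3-AS1). The peak over MIR4521 had no such listed start. MIR4521, with 41.7% and a score of 174, went against the gradient, as 1 of 8 hairpins under 50% G+C, of 692, with a peak over them.

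**Figure D3:**
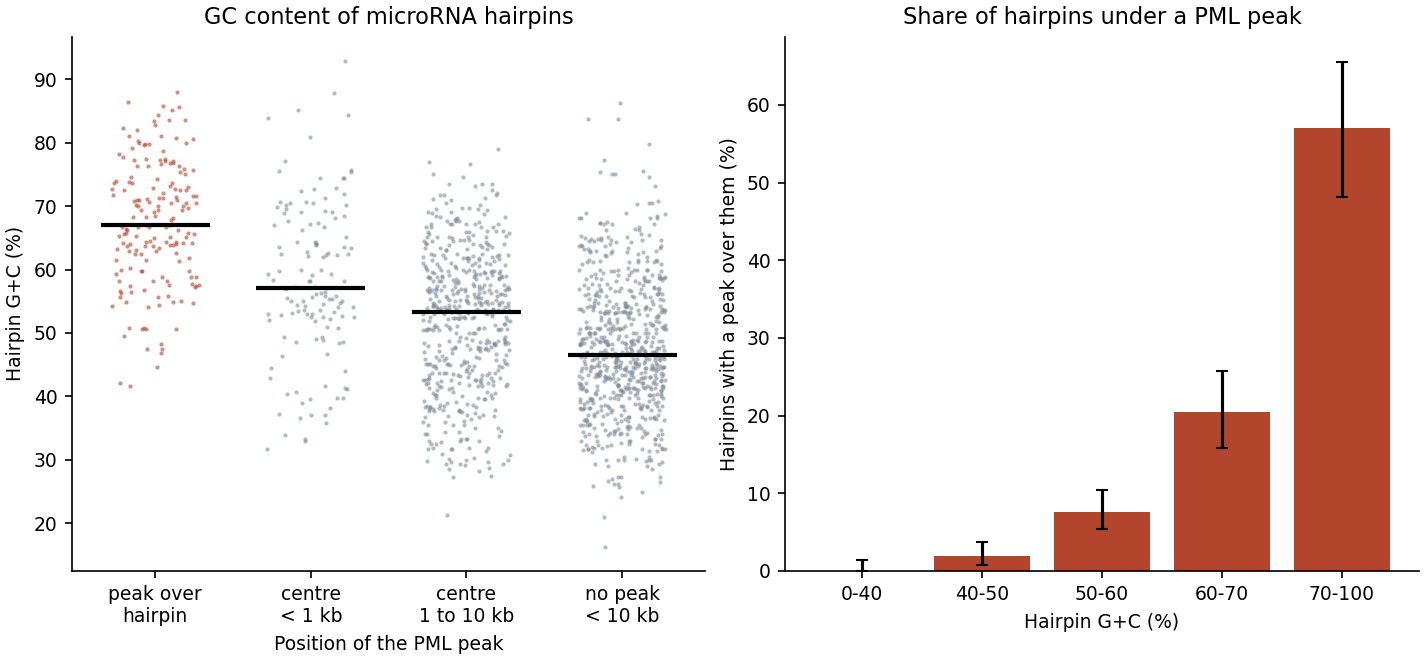
Left, G+C content of 1560 hairpins by the position of the nearest kind of PML peak, with black lines at the medians of 67, 57.1, 53.2 and 46.6%; right, share of hairpins with a peak over them by G+C content, with exact 95% intervals. The share is 57% in the highest bin and 0% in the lowest.

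Starts of other genes moved with this gradient. The RefSeq promoter table used here lists starts for 15842 protein-coding and 11462 lncRNA genes. Like the table of hairpin sequences, it holds none of chromosome 8, so the G+C values above leave out that chromosome and its 5 peaks among the 20 highest. Hairpins of other chromosomes are left out too, since 1560 of the 1913 genes had a sequence and chromosome 8 has 90 of the 1913. Among them is MIR12121 on chromosome 14, with a score of 83 over its hairpin. Some gene starts of other chromosomes are also not listed. Of the 176 hairpins with a peak over them, 79 had a listed start within 1000 bp, and these had a median G+C of 71.3% and a median score of 90. The other 97 had 64.5% and 42. Among hairpins with 70% G+C or more, a peak lay over 48 of 58 (82.8%, interval 70.6 to 91.4%) with a start nearby and over 29 of 77 (37.7%, 26.9 to 49.4%) without. Under 50% G+C, it was 2 of 34 (5.88%) with a start and 6 of 658 (0.912%) without. The share under a peak was thus higher at high G+C both with and without a listed start, and the part that base composition had in the reads was not tested.

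The same held for the peaks of the set itself. There were 246 peaks within 1000 bp of the assigned start and off chromosome 8. Of these, 50 (20.3%), among them the 2 of MIR1-1HG-AS1, were also centred within 1000 bp of a listed start of another gene. Their median score was 55, against 34 for the other 196. Examples were MIR4674 (score 151) at NOTCH1, the receptor gene, MIR10392 (150) at EHD1, an endocytic ATPase gene, MIR4449 (121) at DANCR, a lncRNA, MIR4323 (106) at POU2F2, a transcription factor gene, MIR8072 (98) at SBNO1, MIR1281 (60) at EP300, a histone acetyltransferase gene, and MIR638 (55) at DNM2, which encodes dynamin 2. MIR4707 (93) lay almost exactly at its peak centre, 2 bp away, at the start of HAUS4. MIR96, a neighbour of MIR183, had a peak with a score of 32 centred 3 bp upstream with no such start nearby. MIR4787 (42) in DOCK3 and MIR6798 (36) in RUVBL2 were also centred within 8 bp. The 196 peaks without a listed start include some at coding starts that the list lacks. MIR4754 (146) and MIR6090 (61) were such cases, placed in the promoter class of a coding transcript by the deposited annotation.

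Where the start of a primary transcript is annotated, some peaks lay there and not at the hairpin. MIRLET7A1, the first hairpin of the let-7a-1, let-7f-1 and let-7d cluster, had its only peak of this set 9367 bp upstream at chr9:94165893-94167287, with a score of 221 and a CpG island named. It covered the start of MIRLET7A1HG at position 94166258 of chromosome 9. MIR130A had a peak with a score of 65 centred within 1000 bp of the start of MIR130AHG, 2457 bp upstream of the hairpin, and one with 36 at 3700 bp downstream. MIR200B had a peak with a score of 26 centred within 1000 bp of the start of MIR200BHG, 3892 bp upstream.

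The title of the series names RONIN, also called THAP11, a DNA-binding protein with a long recognition motif, so that motif was searched on both strands of the RefSeq promoter windows, which run from 250 bp before to 50 bp after a start. Of the 81 windows whose start lay within 1000 bp of a microRNA peak, 1 held the full RONIN motif (1.23%), against 121 of all 35116 windows (0.345%). Its inner core, which overlaps the full motif, was in 2 (2.47%), against 1.97% of all, and the AP-1 motif TGANTCA in 4 (4.94%), against 7.71%. The window with the full motif was that of MIR3147HG, where the peak of MIR3147 had a score of 48 at chr7:57404757-57405386. It is shown with the promoter of MIRLET7A1HG, which held no match, as the start with the highest-scoring let-7 peak. Both are plus-strand windows of GRCh38.p14 at chr7:57404517-57404816 and chr9:94166008-94166307, and capitals mark the motif, which was on the opposite strand, 76 to 90 bases before the start. The marked stretch lay 66 bp outside the peak, before its first base.
MIR3147HG: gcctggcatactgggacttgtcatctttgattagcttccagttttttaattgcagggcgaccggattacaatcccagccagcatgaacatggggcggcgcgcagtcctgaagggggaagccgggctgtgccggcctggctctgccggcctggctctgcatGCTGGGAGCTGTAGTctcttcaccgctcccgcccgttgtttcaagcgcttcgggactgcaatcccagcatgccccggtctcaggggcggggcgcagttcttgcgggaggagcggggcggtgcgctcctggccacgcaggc
MIRLET7A1HG: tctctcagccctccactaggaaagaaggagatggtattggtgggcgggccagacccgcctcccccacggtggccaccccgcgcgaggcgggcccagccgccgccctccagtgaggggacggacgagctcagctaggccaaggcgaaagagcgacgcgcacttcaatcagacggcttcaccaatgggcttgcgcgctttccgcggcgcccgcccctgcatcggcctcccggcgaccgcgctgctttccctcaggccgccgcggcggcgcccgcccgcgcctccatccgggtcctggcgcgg
The first window had 64% G+C and the second 72.7%. Over the 81 windows the median G+C was 68.7%, against 58.7% over all windows. A match describes these letters and not a bound site.

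Several microRNAs had many low-scoring peaks. Of the 614 genes, 308 had 1 peak, 145 had 2 and 161 had 3 or more, and the last group took 690 of the 1288 peaks. MIR4472-1 on chromosome 8 had 11 peaks between 142167913 and 142184892, with scores of 18 to 71 and a median of 30. MIR4656 and MIR589, both near the end of the short arm of chromosome 7, had 9 each, with scores of 31 to 65 and 24 to 102, and MIR95 on chromosome 4 had 9 with scores of 16 to 37. MIR1268A and MIR1302-7 had 10 peaks each and MIR4435-2 had 7. Of these, 4, 3 and 4 lay over 10200 bp from every RefSeq placement of the gene or on another chromosome. The counts for such genes therefore do not describe 1 locus. In the 15 genes with 7 or more peaks, no score was above 102.

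The number of genes named by peaks, set against the RefSeq microRNA genes, differed between chromosomes. Peaks on chromosome 9 named 47 genes, against 86 RefSeq microRNA genes there (54.7%), and those on chromosome 20 named 24, against 48 (50%). On chromosome 6 it was 14 against 71 (19.7%), on X 20 against 118 (16.9%) and on 21 3 against 29 (10.3%). These are ratios and not shares of the RefSeq genes, since genes were counted where their peaks lay. MIR1268A was counted on chromosome 9, although RefSeq does not place it there. Counted on chromosome 20 were MIR4477B, placed elsewhere by RefSeq, and MIR1-1HG-AS1, not a microRNA gene. Chromosome 9 held 9.78% of these peaks, against 5.84% of the other peaks within 10000 bp, and chromosome 6 held 1.32%, against 3.22%. Copy number and read depth along the chromosomes of this cell line were not measured in the deposited table, so their part was not tested.

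**Figure D4:**
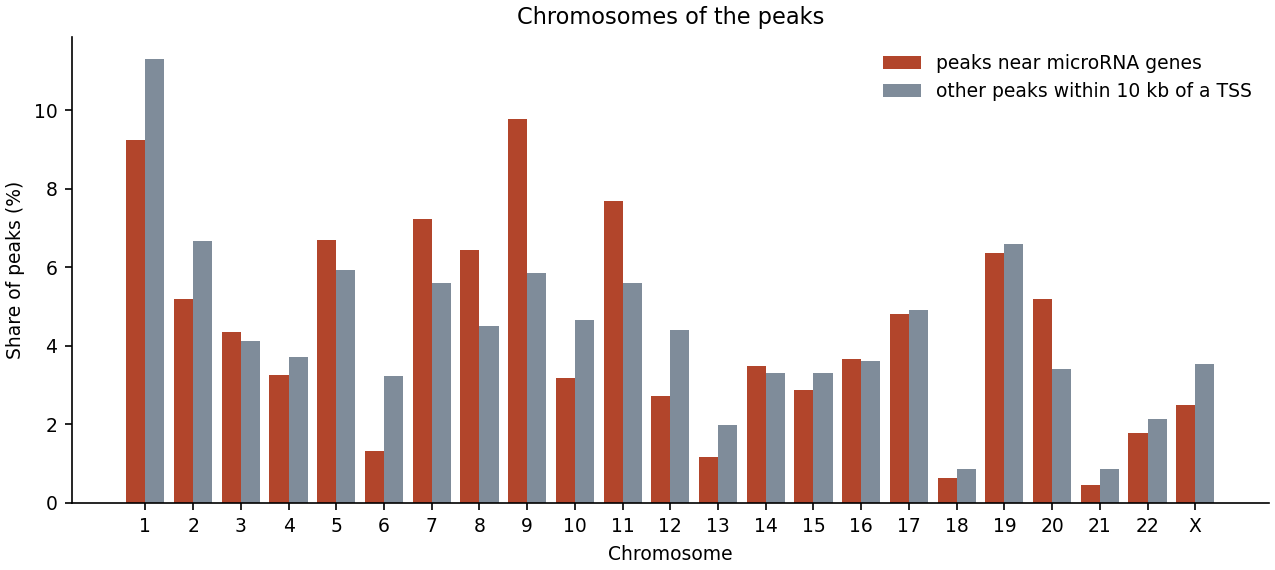
Share of the 1288 peaks near microRNA genes (left bar) and of the 27627 other peaks within 10 kb of a start (right bar) on each chromosome. Chromosome 9 holds 9.78% and 5.84%, and chromosome 6 holds 1.32% and 3.22%.

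MicroRNA families known from cancer and from tissues were compared by count, beside the 613 of 1913 RefSeq microRNA genes with a peak of this set (32%). Over 17 lists with 161 genes in all, 33 genes (20.5%) had one, with a median score of 36 against 32 over the whole set. Counted over any peak within 10000 bp, the shares were 51.6% of the listed genes (83 of 161) and 52.6% of all. The lists were chosen with earlier results of these data known, and no test was made on them. In the let-7 family, which represses growth genes, 3 of 12 had a peak: MIRLET7A1 (221), MIRLET7B with scores of 21, 31, 42 and 54, and MIRLET7A3 (17 and 21). In the miR-130 family it was 3 of 4: MIR130B (75), MIR130A (65 and 36) and MIR301B (48), the last over its hairpin. In the growth-promoting miR-17-92 cluster and its paralogs it was 1 of 15, MIR92A1, with a score of 41 at 5859 bp downstream, while 9 of 15 had any peak within 10000 bp. For the let-7 and miR-130 families the counts over any peak were 6 of 12 and 4 of 4.

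Genes of the p53-induced miR-34 family had no peak of this set (0 of 3), nor did those of the miR-30 (0 of 6), miR-99/100 and miR-125 (0 of 6), miR-181 (0 of 6) and miR-10 (0 of 2) lists. Any peak within 10000 bp, assigned to other genes, was present for 2 of 6 in the miR-99/100 and miR-125 list (MIR125A and MIR99B, highest score 48), for MIR181C and MIR181D (83) and for MIR10B (31), and for none of the miR-34 and miR-30 genes. Of the epithelial miR-200 and miR-205 genes 2 of 6 had one, MIR141 (47, over the hairpin) and MIR200B (26 and 22). MIR497 was the only one of 8 in the miR-15/16 family, with 18. In the miR-23/27/24 clusters MIR27A had 36 over its hairpin and MIR24-2 had 55 and 26 (2 of 6). MIR29A (42) and MIR29B1 (31) were 2 of 4, and MIR221 (26) 1 of 2.

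Of 15 microRNAs often studied in breast cancer, 6 had a peak. MIR126, an endothelial microRNA in EGFL7, had 5 peaks with scores of 26 to 63. The hypoxia-induced MIR210 had 31, and MIR203A, known from skin, had 36 and 28. The neuronal MIR9-1, MIR9-2 and MIR9-3 had 29, 21 and 39. MIR21, MIR31, MIR155, MIR146A, MIR146B, MIR335, MIR22, MIR193B and MIR663A had none by this assignment. Counted over any peak within 10000 bp, 11 of the 15 had one. MIR22 lay under a peak assigned to another gene, with a highest score nearby of 126. The highest scores near MIR146B, MIR335, MIR663A and MIR193B were 55, 36, 31 and 26. Genes of other tissues were not without peaks: 5 of 9 muscle microRNAs had one, with highest scores of 56 for MIR133A2, 48 for MIR1-1, 42 for MIR499A, 41 for MIR208A and 26 for MIR208B. Of the liver, neuronal and blood microRNAs 3 of 11 had one, MIR124-1 (65), MIR124-3 (42) and MIR150 (17), while 5 had any peak within 10000 bp. In the primate cluster on chromosome 19 it was 4 of 46, MIR519A2 (38), MIR520F (37), MIR520G (28) and MIR512-2 (24), while 22 had any peak within 10000 bp.

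**Figure D5:**
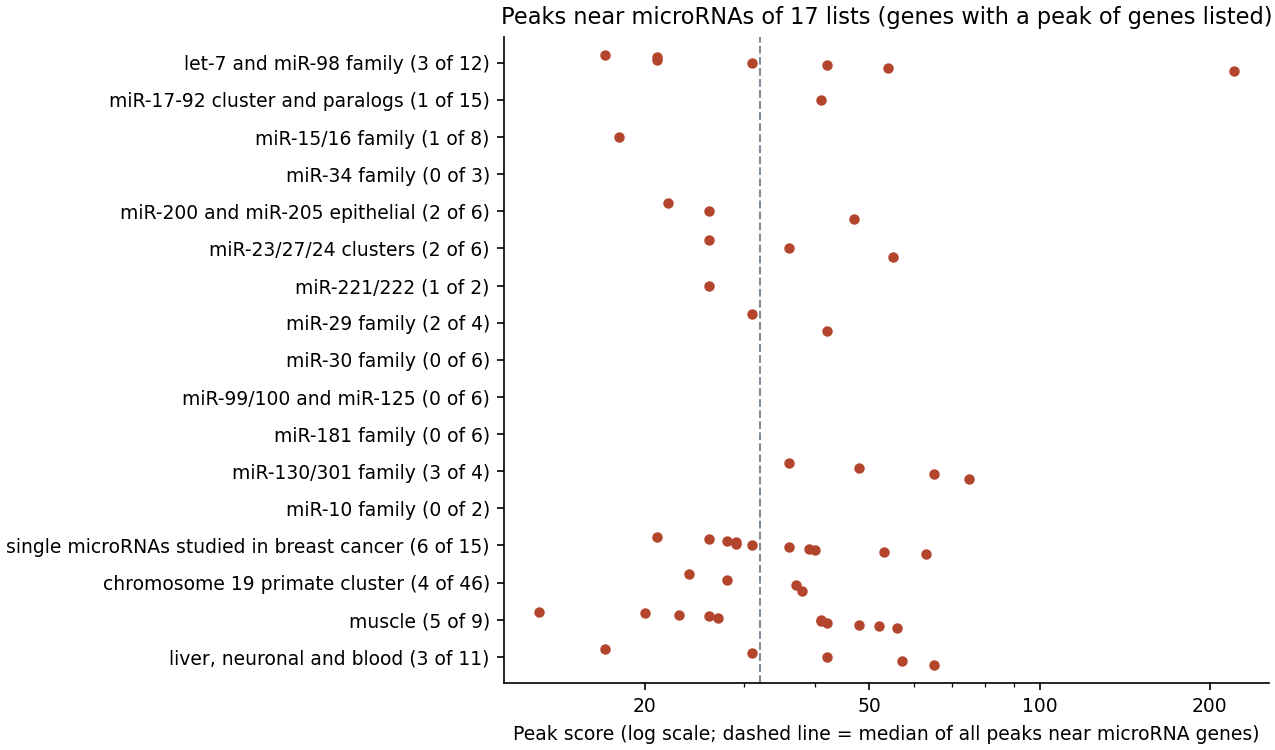
Scores of the peaks near microRNAs of 17 lists on a log axis, 1 point per peak, with the number of genes that have a peak and the number listed after each name; the dashed line is the median of all 1288 peaks, 32. The MIRLET7A1 peak at 221 stands alone at the right, and 5 lists have no point.

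The nearest-gene assignment gives each peak to 1 gene, which matters most for clustered hairpins. Of all 1913 hairpins, 1006 (52.6%, interval 50.3 to 54.8%) had some peak centred within 10000 bp, and 401 of these had no peak of this set. Hairpins standing alone, over 10000 bp from the next, had a peak of this set in 36.1% of 1442 cases, those in clusters of 2 to 9 in 22.2% of 383, and those in the 2 clusters of 10 or more in 7.95% of 88. Counted over any peak within 10000 bp, the shares were 51.7% (interval 49 to 54.3%), 53.8% (48.6 to 58.9%) and 62.5% (51.5 to 72.6%). These intervals overlap, and the 2 large clusters differed. In the cluster on chromosome 19, 22 of 46 hairpins had any peak. In the cluster on chromosome 14 from MIR379 to MIR656, 3 of 42 hairpins had a peak of this set (MIR411 with 31, MIR656 with 26 and MIR376C with 19) and 33 had any peak. Counted over any peak, all 6 hairpins of the miR-17-92 cluster on chromosome 13 lay within 10000 bp of a peak, the highest with a score of 171.

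Hairpins were set beside other small RNA genes and gene starts. Their shares were above those of snoRNA genes and below those of tRNA genes and protein-coding starts at each distance. They were below those of lncRNA starts over the locus and within 1000 bp, and above them within 10000 bp. A peak was centred within 1000 bp of 370 of 1913 hairpins (19.3%, interval 17.6 to 21.2%), of 102 of 1199 snoRNA genes (8.51%), of 174 of 443 tRNA genes (39.3%), of 3082 of 11462 lncRNA gene starts (26.9%) and of 10079 of 15842 protein-coding gene starts (63.6%). The shares with a peak directly over the locus were 11.3%, 2.92%, 32.1%, 17.8% and 53% in the same order. Within 10000 bp they were 52.6%, 42.7%, 63.7%, 45.9% and 74.4%. For the starts of 69 HG host genes the shares were 39.1% over the start, 50.7% within 1000 bp and 73.9% within 10000 bp. The gene starts, those of HG genes among them, came from the promoter table, which holds none of chromosome 8. The hairpins include the 90 microRNA genes of that chromosome, so the gene sets are not alike. Loci are not independent replicates, and these shares are a description of 1 merged list.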

How the data were processed

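PML was measured by ChIP-seq in MDA-MB-231 cells, with 2 PML ChIP and 2 input libraries. The tools HOMER 4.11.1, MACS2 2.1.1.20160309, Picard 2.0.1, BWA 0.7.12 and Trimmomatic 0.36 and the build hg38 come from the submitters' processing notes, with settings not given in the sources used here. Per the series' design text the authors merged the duplicates. The deposited table gives 1 score per peak, a whole number on an unstated scale, and peak bounds and distances in bp. Read depth is unknown from it.

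Members were selected by gene name and distance, and all values were recomputed from the whole table. Hairpins, gene bounds, promoter windows and sequences came from RefSeq tables of GRCh38.p14, the same build as hg38 by the check of distances, with exact Clopper-Pearson 95% intervals. The members, lists and comparisons were chosen with earlier results of these data known. The genes named are those of the 20 highest-scoring peaks, of the 5 nearest to a hairpin among peaks at or above the median score, and of every list member with a peak. The rule also takes genes with 3 or more peaks, of which only a few are named. Some others were added after their values were seen, namely those at other genes' starts, in shared seeds, near the distance limit and in the chromosome 14 cluster. Overlap functions were tested on simulated data. Python 3.11.15, numpy 2.4.6, pandas 2.3.3, scipy 1.17.1 and matplotlib 3.10.9 were used.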

Additional observations from a re-analysis of the deposited data

How the results depend on the processing

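No paired analysis was possible because the authors merged the libraries and no value is kept per replicate. For the same reason no replicate could be left out. Values are given in the order peaks, genes, share within 1000 bp, median score, median width, promoter class and CpG islands. They were 1288, 614, 20.4%, 32, 463 bp, 12.5% and 4.66%. With a 5000 bp limit, peaks fell to 833, the share within 1000 bp was 31.6%, width 486 bp and promoter class 19.3%. With a 1000 bp limit they were 263, 248, 100%, 36, 547 bp, 61.2% and 0.38%. Peaks at or above the whole list's median score gave 621, 381, 24.5%, 48, 609 bp, 14.7% and 6.12%. The 5000 highest-scoring peaks gave 63, 57, 47.6%, 136, 1585 bp, 30.2% and 6.35%. The highest peak of each gene gave 614 peaks, 26.5%, a score of 37, 16.6% and 6.19%. These follow from the selection itself. Including HG genes, or leaving out chromosomes 5 and 8, moved none of the 7 beyond its interval or 1.5-fold. Among hairpins of 70% G+C or more, the share under a peak was 57%, and 37.7% without a listed gene start within 1000 bp, a setting chosen after seeing the data. The unknown depth limits all counts: a hairpin without a peak is not shown to lack PML.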

Other observations

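Host genes ending in HG were left out by the selection, and 28 of them had 52 peaks within 10000 bp. Their median score was 42, and 40.4% of the peaks were centred within 1000 bp of the start, against 32 and 20.4% for the microRNA genes. MIR17HG, the primary transcript of the miR-17-92 cluster, had a score of 171 at chr13:91346939-91349393 over a CpG island, and MIR22HG, which carries MIR22, had 126. MIR9-3HG had its highest at 101, MIR155HG had 75, MIR210HG 48, MIR34AHG 36 and MIR31HG 31. Several of these host genes belong to microRNAs that had no peak of their own by the nearest-gene assignment. By RefSeq starts, 35 of 69 HG genes (50.7%, interval 38.4 to 63%) had a peak centred within 1000 bp.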
